A study of Mus musculus with 10 samples.

Results

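Rbp7, the gene of a small intracellular retinol-binding protein, was described in mouse small intestinal macrophages together with the genes that carry retinol, turn it into retinoic acid and sense the product. The gene set held 9 named members: Rbp7, Rbp4, Aldh1a1, Aldh1a2, Rdh10, Dhrs3, Rara, Rarg and Rxra. They were found by symbol in a table of 17279 genes, which listed 8 of them. Rbp4, the gene of the plasma carrier of retinol, was not analysed here. Rbp7 was picked because it was lower after stroke in these same libraries, so its values are a description and carry no test. The other members were chosen for their roles, and all 8 listed members passed the filter on low counts, which kept 16949 genes. Rbp7 passed it through the sham group, where it was higher.

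RNA sequencing had been carried out on lamina propria macrophages from C57BL6/J mice 24 h after surgery. One group of 5 libraries came from sham-operated mice and the other group of 5 from mice with permanent middle cerebral artery occlusion (pMCAO), a surgical model of ischaemic stroke without reperfusion. The mucosal layer was peeled from the whole small intestine, and the macrophages were taken by flow cytometry as CX3CR1-GFP positive cells, although the genotype label names no reporter allele. Neither the sex nor the age of the mice is given in the labels. Libraries are named below by group and replicate number. Replicate 1 of each group carries a library name with the word pool, and Xist, the RNA of the inactive X chromosome, was at 2240 CPM (counts scaled to library size) in sham 5, at 4690 CPM in pMCAO 4 and at most at 4.88 CPM in the other libraries.

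Total counts ran from 18894151 to 60665972 in the sham group (median 33913980) and from 6430643 to 28672285 in the pMCAO group (median 11605371), so that weakly expressed genes were measured less precisely after pMCAO. All 12 macrophage markers were present, and their summed level was 3550 to 9690 CPM in the sham and 5040 to 10700 CPM in the pMCAO libraries. Other cells had left RNA as well. The 8 B and plasma cell markers summed to 829 to 24900 CPM in the sham and 1130 to 27400 CPM in the pMCAO libraries. That sum was above the macrophage sum in sham 2 (24900 against 6100 CPM) and sham 5 (3810 against 3550 CPM). The same held in pMCAO 1, pMCAO 2 and pMCAO 5. The 15 enterocyte and epithelial markers summed to 452 to 1160 CPM in the sham and 170 to 1650 CPM in the pMCAO libraries. The 6 listed markers of granulocytes and mast cells summed to 1190 to 10700 CPM in the sham and 281 to 3630 CPM in the pMCAO libraries.

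Vitamin A travels as retinol and is stored as retinyl esters. Retinol dehydrogenases such as Rdh10 oxidise retinol to retinal, Dhrs3 reduces retinal back to retinol, and the retinaldehyde dehydrogenases of the Aldh1a family oxidise retinal to retinoic acid. Retinoic acid binds the receptors Rara, Rarb and Rarg, which act on DNA as pairs with the Rxr receptors, and the intestinal mucosa is a tissue where this signal is known to shape immune cells. Within cells, retinol is held by small proteins of the fatty acid-binding protein family, among them Rbp2 and Rbp7.

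The stretches of DNA before a pair of start sites are shown because one belongs to the member that differed most between the groups and the other to a receptor gene with a textbook retinoic acid response element. Both are the 250 bases before the RefSeq start (GRCm38.p6). Rbp7 lies on the minus strand of chromosome 4, and its stretch is chr4:149454969-149455218. Rarb lies on the minus strand of chromosome 14, and its stretch is chr14:16575477-16575726. The capitals mark a direct repeat of receptor-binding hexamers with a spacer of 5 bases (DR5).
Rbp7: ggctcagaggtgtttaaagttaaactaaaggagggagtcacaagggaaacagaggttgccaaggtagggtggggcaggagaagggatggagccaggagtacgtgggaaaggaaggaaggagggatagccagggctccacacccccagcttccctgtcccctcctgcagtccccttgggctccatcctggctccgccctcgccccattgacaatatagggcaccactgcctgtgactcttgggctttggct
Rarb: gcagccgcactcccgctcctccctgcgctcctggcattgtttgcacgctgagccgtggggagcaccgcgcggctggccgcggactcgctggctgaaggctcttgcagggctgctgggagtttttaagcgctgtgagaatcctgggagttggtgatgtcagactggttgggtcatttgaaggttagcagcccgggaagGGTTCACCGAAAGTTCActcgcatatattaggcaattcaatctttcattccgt
Searched on both strands were the consensus hexamer AGGTCA and 3 close forms of it. GGTTCA opens the Rarb repeat. AGTTCA closes it. The last form was GGGTCA. The DR5 repeat of Rarb began 53 bases before the start. Such a repeat stood in 29 of 32851 promoter stretches of this length (0.0883%), and Cyp26a1, the gene of a retinoic acid-degrading enzyme that was not analysed here, held another. Of the 9 members, 8 had entries in the promoter table, with 17 starts in all; Rdh10 had none. A hexamer, repeated or not, was in 5 of these 17 stretches, against 38.6% of all promoter stretches. The Rbp7 stretch held none of these hexamers, and no member stretch held a repeat with a spacer of 1, 2 or 5 bases. These are matches of letters, and binding of a receptor was not measured.

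Rbp7 (ENSMUSG00000028996; chr4:149449687-149454978 on GRCm38, a protein-coding gene with 718 bases of exon) was present in every sham library and nearly absent after pMCAO. The reads counted in the sham libraries were 31, 120, 136, 111 and 437 in replicate order, and those in the pMCAO libraries were 3, 20, 0, 0 and 7. Scaled for library size, Rbp7 stood at 1.08, 3.88, 3.92, 6.98 and 5.65 CPM in sham 1 to 5. After pMCAO it stood at 0.44, 0.751, 0, 0 and 0.229 CPM. No pMCAO library reached the lowest sham library. The mean was 4.30 ± 2.22 CPM in the sham group and 0.284 ± 0.319 CPM in the pMCAO group (SD, n = 5 each), a ratio of 15.2 between the means. The fitted log2 fold change was -3.84 and ran from -4.72 (without pMCAO 2) to -3.43 (without the libraries with high Xist counts) over 20 alternative fits. In bulk RNA, fewer cells that express Rbp7 and less Rbp7 RNA per cell cannot be told apart.

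**Figure D1:**
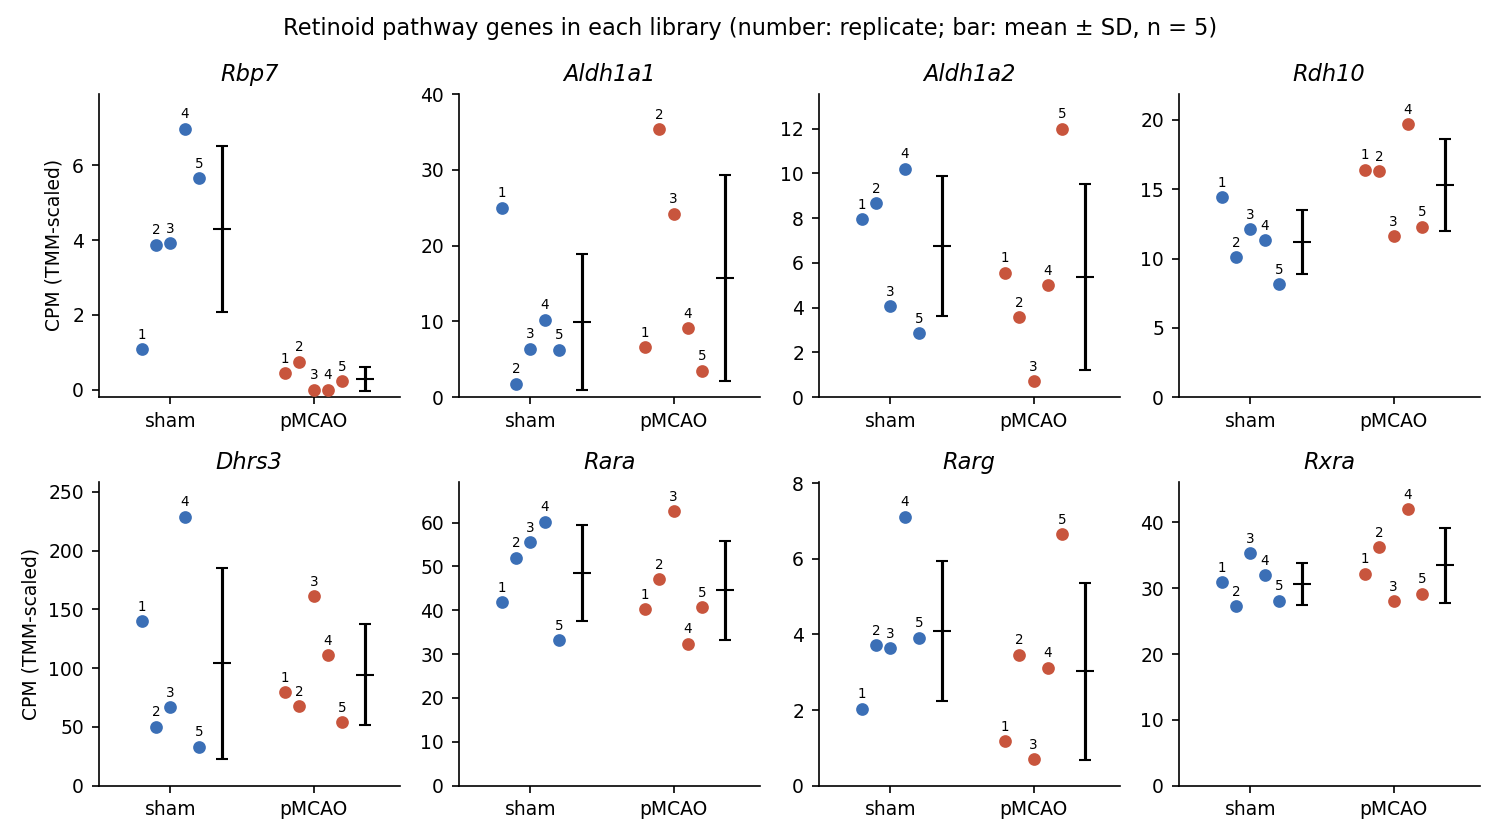
Level of the 8 listed retinoid genes in CPM (y axes, scaled by the trimmed mean of M values) in the 5 sham (blue) and 5 pMCAO (red) libraries, with the replicate number above each point and the mean ± SD beside it. All pMCAO points of Rbp7 lie below the lowest sham point at 1.08 CPM, whereas the groups overlap for the other 7 genes.

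The gap between the groups was narrow at its nearest point. Sham 1, a library named as a pool, had an exact 95% Poisson interval of 0.735 to 1.54 CPM for Rbp7, which overlaps that of pMCAO 2 (0.459 to 1.16 CPM) and that of pMCAO 1 (0.0907 to 1.29 CPM). The intervals cover counting error only. In pMCAO 3 and pMCAO 4, where no read was counted, the limit that a count of 0 allows (3 counts) is 0.303 and 0.246 CPM, below the lowest sham value. Within the sham group, Rbp7 spanned a 6.45-fold range. Among all tested genes, 91 (0.537%) had every pMCAO library below every sham library, and nothing is read from the presence of Rbp7 among them, since it was chosen from this contrast.

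Rbp7 is best known from endothelium and fat, and the markers of those cells were checked library by library. Of 12 endothelial markers, 5 were listed, and Cldn5, Emcn, Gpihbp1, Plvap, Ptprb, Tek and Tie1 were not analysed here. The listed ones summed to 55.0, 65.6, 52.0, 34.9 and 102 CPM in the sham libraries and to 53.5, 58.4, 19.4, 51.8 and 80.0 CPM in the pMCAO libraries, mostly from Pecam1, which leukocytes also express. Sham 4, with the highest Rbp7 level, had the lowest sum of its group, whereas sham 5, next in Rbp7, had the highest sum and pMCAO 3, with no Rbp7 read, the lowest of all. Cdh5, the cadherin of endothelial junctions, was at 2.27 ± 2.16 CPM in the sham and 2.27 ± 1.59 CPM in the pMCAO group. Of 7 adipocyte markers only Fabp4 was listed; it was at most 1.66 CPM in the sham libraries and reached 9.60 CPM in pMCAO 4, where no Rbp7 read was counted. Mcpt1, a mast cell protease, was at 4390 ± 3180 CPM in the sham and 1210 ± 1120 CPM in the pMCAO group. The groups overlapped (log2 fold change -1.86, unadjusted p = 0.018, FDR = 0.922 by the edgeR quasi-likelihood test). Cpa3 and Kit, also mast cell markers, had log2 fold changes of -1.17 and -0.72 (edgeR unadjusted p = 0.0797 and 0.226, FDR = 0.922 for both). Of 10 granulocyte and mast cell markers 6 were listed, and they summed to 4720, 3790, 3960, 1190 and 10700 CPM in the sham libraries and to 1670, 987, 281, 712 and 3630 CPM in the pMCAO libraries. Sham 5 was highest in this sum and next to highest in Rbp7, and pMCAO 3 and pMCAO 4, with no Rbp7 read, were the lowest, while sham 4, with the most Rbp7, was the lowest of the sham group. Of 73 tested markers of all cell types, 2 (2.74%) had an unadjusted p under 0.05, against 4.71% of all tested genes. They were Mcpt1 and Pdgfrb, a pericyte and fibroblast receptor (8.78 ± 7.32 and 3.51 ± 1.43 CPM, log2 fold change -1.32, edgeR unadjusted p = 0.0413, FDR = 0.922). Of the 9 listed fibroblast markers, 3 had a log2 fold change above 0 and 6 below (median -0.29). These ran from -1.32 for Pdgfrb to 1.59 for Pdgfra. The sum of the 9 overlapped between the groups (26.9 to 48.9 CPM in the sham and 16.9 to 36.2 CPM in the pMCAO libraries). The part of these cells in the Rbp7 difference was not tested.

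The tested genes on either side of Rbp7 on chromosome 4 gave no difference that passed the test. Toward higher coordinates, Trmt112-ps2, a pseudogene that may share reads with its parent, was at 12.3 ± 1.68 CPM in the sham and 12.3 ± 2.57 CPM in the pMCAO group. Nmnat1, an NAD synthesis gene, was at 7.27 ± 1.88 and 4.26 ± 1.45 CPM (log2 fold change -0.78 ± 0.36 SE, unadjusted p = 0.051 and FDR = 0.922 by edgeR). Toward lower coordinates, Ube4b, a ubiquitin ligase gene, was at 53.7 ± 14.4 and 67.0 ± 5.83 CPM.

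The genes whose pattern over the 10 libraries was most like that of Rbp7 were taken by Pearson's r of log2 CPM, as a description. They were Mcm6 (r = 0.943), Gm16534 (r = 0.935), 2810428I15Rik (r = 0.919), Idi1 (r = 0.915) and Cox20-ps (r = 0.915). Because Rbp7 separates the groups, genes that do so rank high by construction, and with the group means removed r was between 0.763 (Mcm6) and 0.925 (2810428I15Rik). Mcm6, a subunit of the replicative helicase, was at 54.3, 69.1, 61.4, 56.2 and 63.3 CPM in the sham libraries and at 39.6, 41.3, 29.1, 32.7 and 41.8 CPM in the pMCAO libraries. Its groups did not overlap, but its difference did not pass the test over all genes (log2 fold change -0.72 ± 0.16 SE, FDR = 0.922 by edgeR). Nothing is read from its separation of the groups, since Mcm6 was taken for its likeness to Rbp7, which was chosen from this contrast. Idi1, an isoprenoid synthesis gene, was at 7.62 ± 1.25 CPM in the sham and 3.63 ± 1.79 CPM in the pMCAO group. Gm16534 and Cox20-ps were weakly expressed, with sham means of 0.761 and 1.02 CPM and pMCAO means of 0.19 and 0.412 CPM.

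For the retinoid genes other than Rbp7, no difference between the groups passed the test. At an FDR of 0.05, edgeR called 0 of 16949 genes (0.0%), and 799 (4.71%) had an unadjusted p under 0.05. Of the 7 other listed members, 0 had an unadjusted p under 0.05, in this fit and in all 20 alternatives. Their log2 fold changes ran from -0.41 (Rarg) to 0.67 (Aldh1a1), with a median of -0.12 beside -0.01 for all tested genes. DESeq2 called 3 genes at an FDR of 0.05 (0.0178%), with 1011 (5.99%) at an unadjusted p under 0.05. No other retinoid gene examined here was among the 3. Nothing is read from any call of Rbp7, since it was chosen from this contrast. The labels call the libraries biological replicates.

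Rdh10 (chr1:16105774-16133734), which carries out the first oxidation step from retinol to retinal, came nearest to a difference among the members tested. It stood at 14.4, 10.1, 12.1, 11.3 and 8.14 CPM in the sham libraries and at 16.4, 16.3, 11.6, 19.7 and 12.3 CPM in the pMCAO libraries. The groups overlapped, with pMCAO 3 and pMCAO 5 below sham 1. The means were 11.2 ± 2.33 and 15.3 ± 3.33 CPM, and the log2 fold change of 0.44 had a 95% interval of -0.08 to 0.97 (edgeR, unadjusted p = 0.0891, FDR = 0.922). It kept its sign in the alternative fits, from 0.23 to 0.55.

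Dhrs3 (chr4:144892827-144928209), the enzyme that returns retinal to retinol and a known retinoic acid-induced gene, was the most abundant member per length. Its sham levels were 140, 50.3, 67.0, 229 and 33.1 CPM, and its pMCAO levels were 79.6, 67.4, 161, 111 and 53.9 CPM. Each group thus held both high and low libraries. The log2 fold change was -0.14 (95% interval -1.18 to 0.91, edgeR FDR = 0.98) and became 0.37 without sham 4.

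The libraries high in Dhrs3 were also high in C1qa, a complement gene of mature tissue macrophages. C1qa stood at 493, 200, 430, 443 and 145 CPM in the sham and at 312, 227, 628, 406 and 196 CPM in the pMCAO libraries, so that sham 4, pMCAO 3 and sham 1 led both genes and sham 5 was last in both. This was looked at after the values were seen, as part of 27 relations: Dhrs3 with the 12 macrophage markers and Aldh1a1 with the 15 epithelial markers, each over 10 libraries on the log2 CPM scale. For Dhrs3 and C1qa, Pearson's r was 0.872 (permutation p = 0.00114, adjusted p = 0.0125) and Spearman's rho was 0.879 (permutation p = 0.00155, adjusted p = 0.0176). Without the 2 libraries farthest from the median of C1qa r was 0.776, and with the group means removed it was 0.872. Leaving out the 2 libraries lowered r for 11 of the 12 markers. Of the 12 macrophage markers, 8 had an adjusted p under 0.05 for Pearson's r with Dhrs3. They included the complement gene C1qc (r = 0.849, rho = 0.867, adjusted permutation p = 0.0125 and 0.0176), while Fcgr1 had the lowest r of the 12, at 0.487 (rho = 0.2, adjusted permutation p = 0.201 and 0.608). All of these share the libraries' depth, scaling and macrophage content.

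Aldh1a1 and Aldh1a2, the pair of retinoic acid-forming enzymes among the members, followed different libraries. Aldh1a1 (chr19:20492715-20643465) was at 25, 1.78, 6.39, 10.2 and 6.27 CPM in the sham libraries and at 6.60, 35.4, 24.2, 9.11 and 3.47 CPM in the pMCAO libraries. Sham 1, pMCAO 2 and pMCAO 3 were high and the groups overlapped (log2 fold change 0.67, 95% interval -0.85 to 2.20, edgeR FDR = 0.931). Its log2 fold change was 0.12 without pMCAO 2, 1.36 without sham 1 and 1.55 without both pools. The same 3 libraries had the 3 highest sums of epithelial markers, at 1160, 1650 and 779 CPM.

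Aldh1a1 is known in intestinal epithelium, and over all 10 libraries its highest r among the epithelial markers were with lipid-handling genes of enterocytes. With Rbp2, the retinol carrier of enterocytes, r was 0.845 (rho 0.77, adjusted permutation p = 0.0125 and 0.0475). With Fabp1 it was 0.821 (rho 0.77, adjusted permutation p = 0.0156 and 0.0475). Without the 2 libraries farthest from the median of the marker, r fell for 3 of the 15 markers, to 0.57 for Rbp2, 0.508 for Fabp1 and 0.592 for Apoa1. It rose for 11, to 0.928 for Sis, 0.927 for Apoa4, 0.904 for Vil1, 0.887 for Alpi and 0.825 for Fabp2 among them. With Epcam, the general epithelial marker, r was 0.212 (rho 0.406, adjusted permutation p = 0.606 and 0.281). Of the 15 epithelial markers, 4 had an adjusted p under 0.05 for Pearson's r. How much of the Aldh1a1 signal came from epithelial RNA was not tested.

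Aldh1a2 (chr9:71215789-71296243), the retinaldehyde dehydrogenase known from mucosal dendritic cells and stroma, was at 7.96, 8.67, 4.06, 10.2 and 2.86 CPM in the sham and at 5.57, 3.57, 0.707, 5.00 and 12 CPM in the pMCAO libraries. Its highest and its lowest value were both from pMCAO libraries, and the log2 fold change was -0.32 (95% interval -1.61 to 0.97, edgeR FDR = 0.962). It turned to 0.11 in limma-voom with sample quality weights and was -0.86 without pMCAO 5 and -0.05 without pMCAO 3. The summed dendritic cell markers were highest in pMCAO 5 (958 CPM), as was Aldh1a2, but were 910 CPM in sham 2 and 833 CPM in pMCAO 2, where Aldh1a2 was 8.67 and 3.57 CPM. For both enzymes the interval includes 0 as well as changes of more than 1 on the log2 scale.

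**Figure D2:**
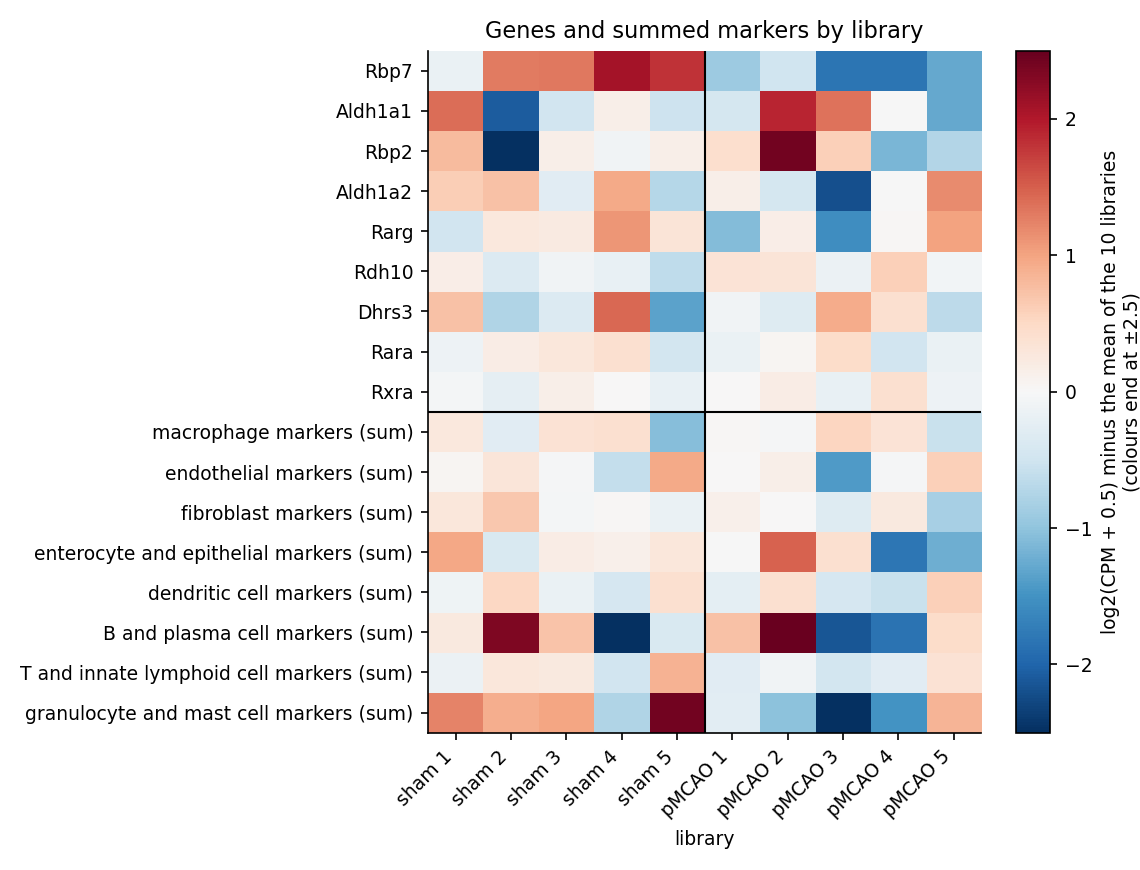
Rbp7, the other listed members, Rbp2 and the summed markers of 8 cell types (rows) in the 10 libraries (columns), as log2(CPM + 0.5) minus the mean of the row, with colours ending at ±2.5. Rbp7 is lower in each of the right 5 libraries than in any of the left 5, although sham 1 also lies slightly below the mean of the row. Aldh1a1 and Rbp2 are high in pMCAO 2, the library with the epithelial maximum of 1650 CPM.

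Rara and Rxra had the narrowest intervals of the tested members. Rara (chr11:98927818-98974942), the main retinoic acid receptor of these cells per length, stood at 41.8, 52.0, 55.5, 60.2 and 33.1 CPM in the sham and at 40.2, 47.1, 62.6, 32.4 and 40.7 CPM in the pMCAO libraries (log2 fold change -0.12, 95% interval -0.59 to 0.35, edgeR FDR = 0.958). Rxra (chr2:27676440-27762957), the receptor partner, was at 30.9, 27.3, 35.3, 32.0 and 28.1 CPM against 32.2, 36.2, 28.0, 42.0 and 29.2 CPM. Its log2 fold change was 0.13, with a 95% interval of -0.24 to 0.49 (edgeR FDR = 0.945), and was -0.0033 without the libraries with high Xist counts. Rarg (chr15:102234938-102257517) was low throughout, at 2.03, 3.72, 3.63, 7.11 and 3.91 CPM in the sham and at 1.17, 3.46, 0.707, 3.12 and 6.64 CPM in the pMCAO libraries (log2 fold change -0.41, 95% interval -1.69 to 0.87, edgeR FDR = 0.95). Its log2 fold change ran from -0.92 without pMCAO 5 to -0.13 without sham 4.

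Levels of different genes were compared per length, as CPM per kb of exon. In the sham group the order of the members was Dhrs3 (35.6 ± 27.7), Rara (11.1 ± 2.51), Rbp7 (5.99 ± 3.09), Rxra (5.63 ± 0.588), Aldh1a2 (2.98 ± 1.39), Rdh10 (2.70 ± 0.56), Aldh1a1 (2.01 ± 1.81) and Rarg (0.957 ± 0.435 CPM per kb). The ranges of neighbours in this order overlapped, except between Rxra and Aldh1a2. In the pMCAO group Rbp7 stood last of the 8, at 0.396 ± 0.444 CPM per kb, and the order of the other members was Dhrs3, Rara, Rxra, Rdh10, Aldh1a1, Aldh1a2 and Rarg. In that group the ranges of neighbours overlapped, except between Dhrs3 and Rara and between Rxra and Rdh10.

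Per length, Rara made up most of the retinoic acid receptor RNA. Its share was 88.3 ± 6.66% in the sham and 86.7 ± 10.2% in the pMCAO group, with Rarg at 7.48 ± 2.40% and 6.14 ± 4.29%. Rarb, the receptor gene with the response element shown above, held the rest, at 4.26 ± 5.25% and 7.18 ± 6.34%. Its own level was 2.03, 0.873, 0.0288, 2.52 and 6.87 CPM in the sham and 1.61, 1.5, 2.73, 4.59 and 11.9 CPM in the pMCAO libraries, highest in replicate 5 of each group. Of the Rxr RNA, Rxra and Rxrb each held near equal shares, with Rxra at 50.1 ± 5.93% and 48.3 ± 9.89%; Rxrg was not analysed here.

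**Figure D3:**
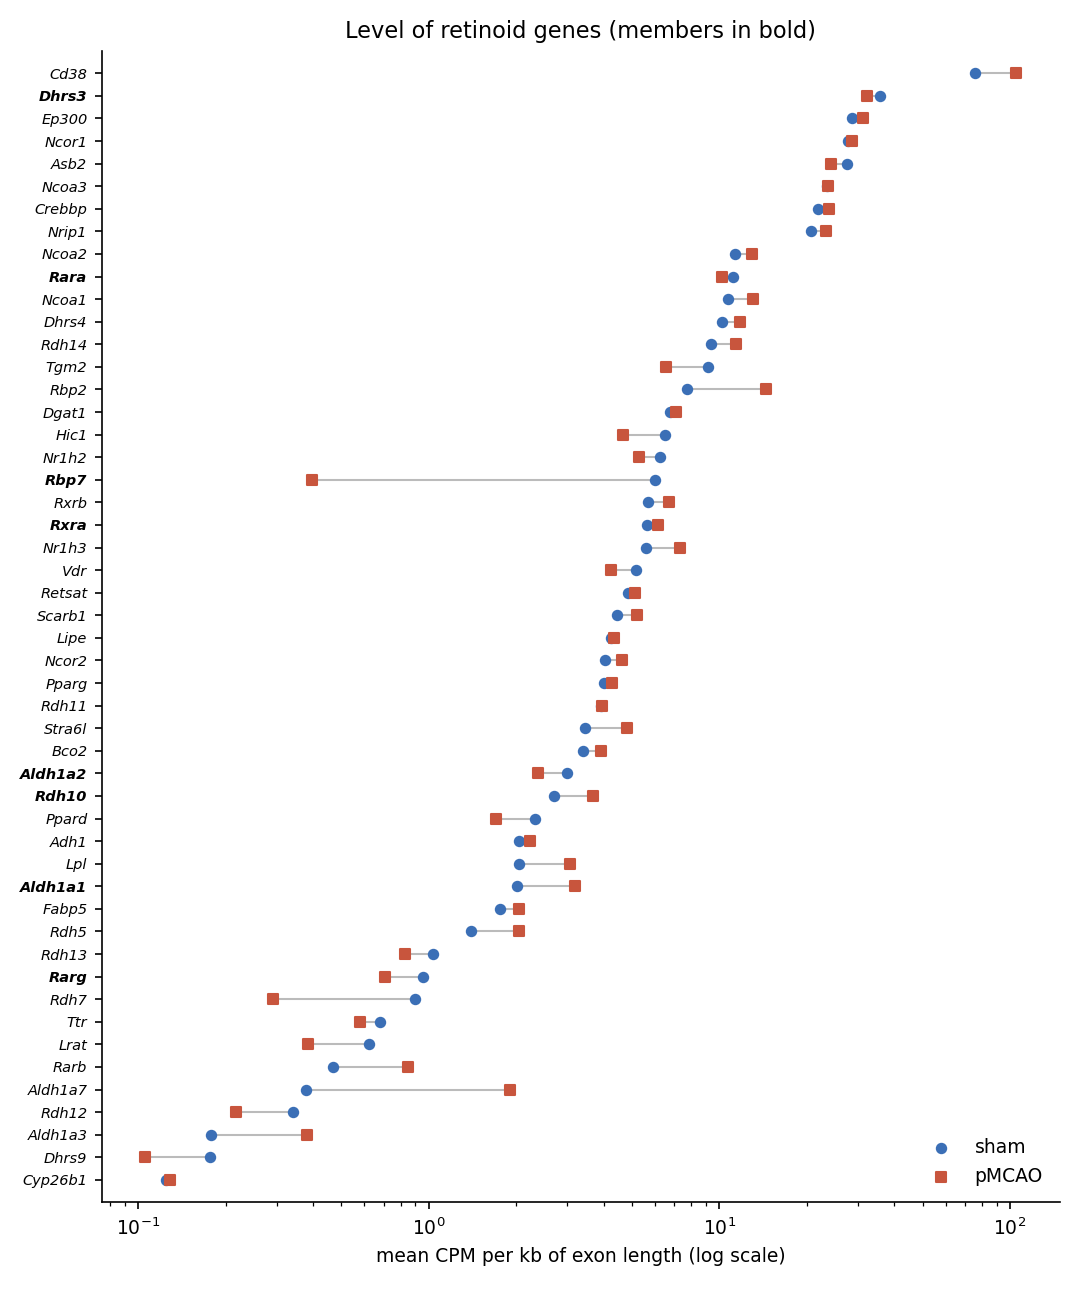
Mean level of tested retinoid genes in CPM per kb of exon length (log x axis) in the sham (blue circles) and pMCAO (red squares) groups, ordered by the sham mean, with members in bold. Rbp7 has the longest grey line, from 5.99 to 0.396 CPM per kb, and Dhrs3 stands next to the top at 35.6 and 32.3.

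The wider pathway was followed in 59 further genes of uptake, metabolism, receptors, coregulators and known retinoic acid responses. Of these 45 were listed and 44 tested, and 0 had an unadjusted p under 0.05, against 4.71% of all tested genes. Their median log2 fold change was 0.13 beside -0.01 for all genes, with 31 above 0 and 13 below (50.6% of all genes were below 0). Over the alternatives the median ran from 0.04 without pMCAO 3 (24 of 45 above 0) to 0.20 without both libraries with high Xist (32 of 45). The count with an unadjusted p under 0.05 became 1 without sham 1 (Aldh1a3), sham 4 (Cd38), pMCAO 2 (Lpl) or pMCAO 5 (Hic1). It became 2 without pMCAO 3 (Lrat and Ppard). The share of all genes is not given for the fits that leave out a library, so nothing is read from these counts. Limma-voom gave 2 (5.2% of all genes), limma-voom with sample quality weights 5 (11.1% of all genes), and no gene passed an FDR of 0.05 in any of these fits.

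Among the 6 tested genes of carriers and uptake, Rbp2 had the highest level per length and the highest log2 fold change, 0.91 (95% interval -0.68 to 2.5), with 41.1 CPM in pMCAO 2 against 0.873 to 13.1 CPM in the sham libraries. Without pMCAO 2 its log2 fold change was -0.07. Ttr, the partner of Rbp4 in plasma, had the lowest, -0.20, at levels under 2 CPM. Stra6l, a membrane receptor of the Stra6 family, was at 33.1 ± 12.4 and 46.0 ± 16.3 CPM.

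Of the 16 genes that form or reduce retinal, 10 were tested. Rdh5, a retinol dehydrogenase, had the highest log2 fold change (0.53, 95% interval -0.46 to 1.52) and Rdh7 the lowest (-1.57, 95% interval -4.43 to 1.29). Rdh7 was weakly expressed, at 1.51 ± 0.921 and 0.49 ± 0.684 CPM. Dhrs4, a retinal reductase, had the highest level per length and stood at 18.0 ± 4.82 and 20.7 ± 11.4 CPM.

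The other retinaldehyde dehydrogenases were weakly expressed in most libraries. Aldh1a3 was at 2.27, 1.00, 0.259, 0.314 and 0.259 CPM in the sham and at 2.20, 3.01, 1.52, 1.23 and 0.851 CPM in the pMCAO libraries. Only sham 1 and sham 2 reached the pMCAO range (log2 fold change 1.10, 95% interval -0.56 to 2.75, edgeR unadjusted p = 0.175, FDR = 0.922). Aldh1a7 was at 14.8 CPM in pMCAO 3, at 4.28 CPM in pMCAO 2 and at or below 1.58 CPM elsewhere. It is a close paralogue of Aldh1a1 on the same chromosome, and how reads that match both were counted is not given in the sources used here, so the values of either gene are uncertain to that extent.

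Among the genes of ester storage and release, Lpl, a lipase that acts on chylomicrons, had the highest log2 fold change (0.59, 95% interval -0.32 to 1.49) and Lrat, the main retinol-esterifying enzyme, the lowest (-0.71, 95% interval -2.69 to 1.28). Lrat was at 7.78 CPM in pMCAO 3 and at or below 1.39 CPM in the other pMCAO libraries, against 1.64 to 6.01 CPM in the sham libraries. Without pMCAO 3 its log2 fold change was -2.40 (edgeR unadjusted p = 0.00776, FDR = 0.832). With all libraries the edgeR unadjusted p was 0.453 (FDR = 0.945). Dgat1, which can also esterify retinol, had the highest level per length, at 20.7 ± 6.23 and 21.7 ± 7.54 CPM. Cyp26b1 was the 1 retinoic acid-degrading gene measured, at 0.668 ± 0.851 and 0.688 ± 0.442 CPM.

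**Figure D4:**
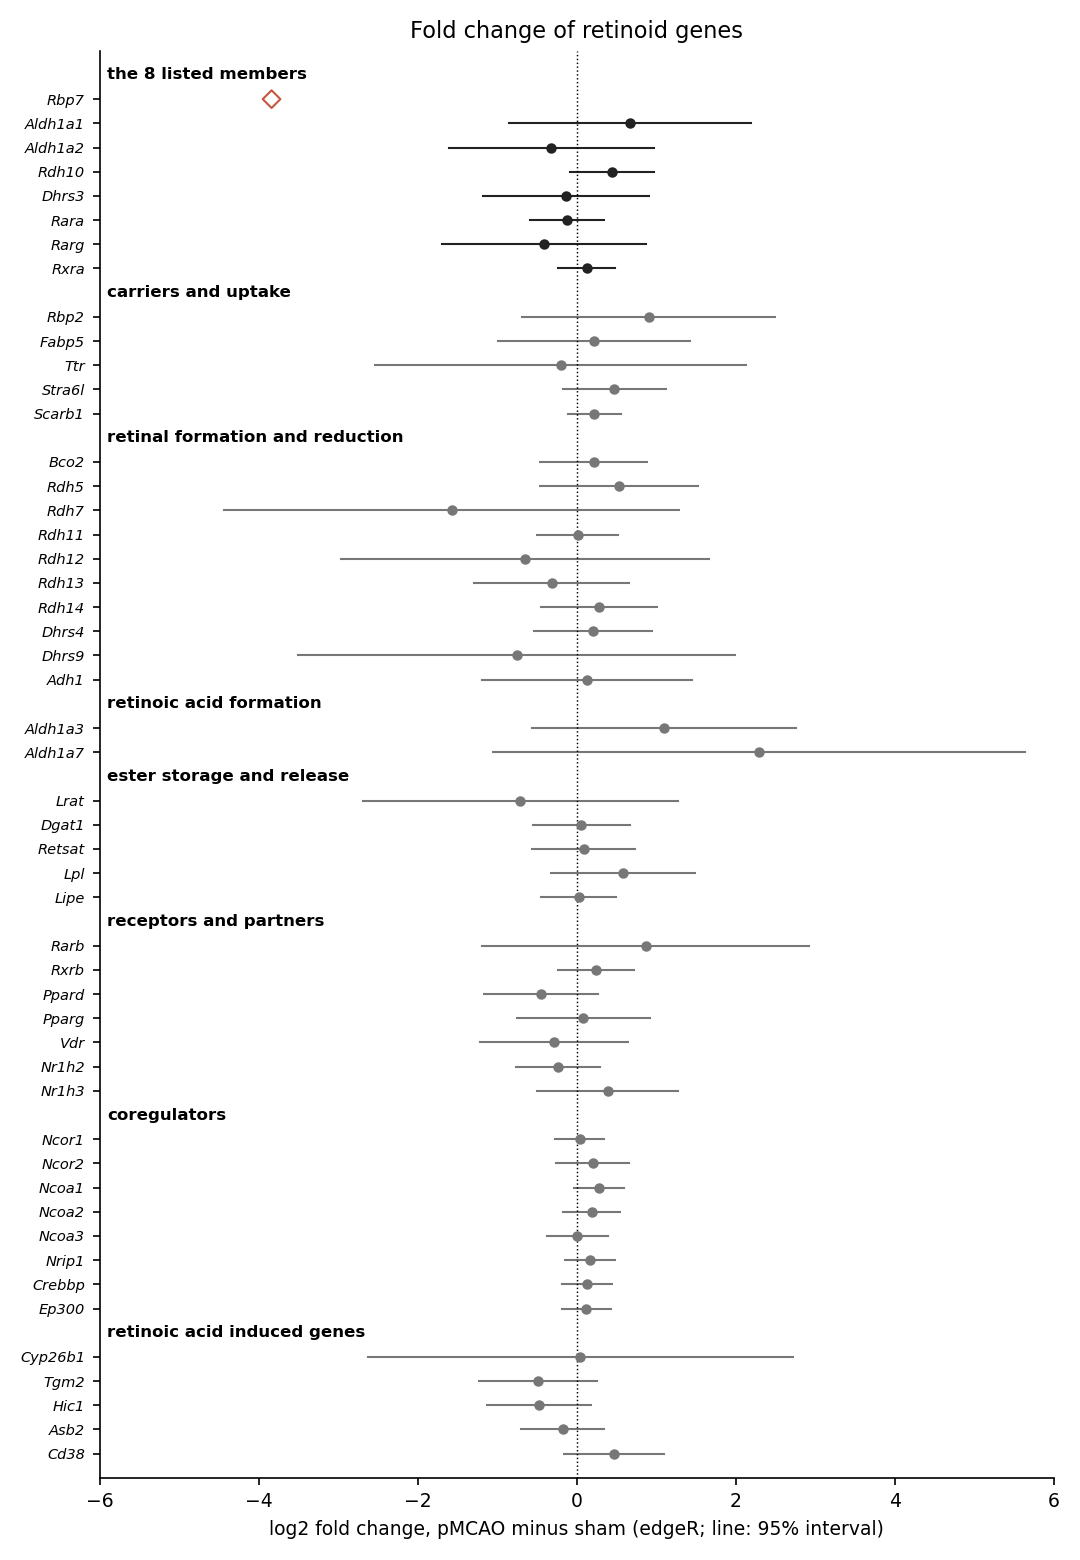
Log2 fold change (pMCAO minus sham, x axis) of the listed members and of wider retinoid genes, grouped by role, with the 95% interval of the edgeR fit as a line; Rbp7, chosen from this contrast, is drawn as an open diamond without an interval. The intervals of all genes drawn other than Rbp7 include 0, and the widest are those of weakly expressed genes such as Aldh1a7 (-1.05 to 5.64).

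Among the receptors that pair with Rxr proteins and their coregulators, 0 of 16 had an unadjusted p under 0.05. Rarb had the highest log2 fold change of the receptors (0.87, 95% interval -1.19 to 2.92). Nr1h3, a liver X receptor, had the highest mean level per length over the 10 libraries, at 14 ± 6.65 and 18.4 ± 10.8 CPM. In the sham group alone, Nr1h2 (6.25 ± 1.59 CPM per kb) and Rxrb (5.67 ± 1.24) had higher means than Nr1h3 (5.59 ± 2.65). All 8 coregulators had log2 fold changes above 0 in edgeR, from 0.01 (Ncoa3) to 0.28 (Ncoa1), beside 49.4% of all genes. Of 20 alternatives, 11 also had all 8 above 0, 8 had 7 and 1, without sham 1, had 6. Ncoa1 was at 91.5 ± 6.85 and 111 ± 16.7 CPM (edgeR unadjusted p = 0.0708, FDR = 0.922), and Ep300, an acetyltransferase with the highest level per length of the list, at 409 ± 51.5 and 445 ± 32.1 CPM.

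No gene known to be induced by retinoic acid passed the test. Of 14, 9 were tested, 5 with a log2 fold change above 0 and 4 below (median 0.05), and 0 had an unadjusted p under 0.05. Cd38, an NAD-consuming surface enzyme and the gene with the highest level per length, stood at 307, 200, 302, 479 and 191 CPM in the sham and at 495, 295, 514, 492 and 253 CPM in the pMCAO libraries (log2 fold change 0.47, 95% interval -0.15 to 1.10). In 3 pMCAO libraries it was thus above every sham library, and in the other two it was within the sham range. Tgm2, a transglutaminase, had the lowest log2 fold change, -0.48 (95% interval -1.23 to 0.26), at 42.0 ± 11.5 and 30.1 ± 14.9 CPM.

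Of the 12 fatty acid-binding relatives of Rbp7, 7 were listed and 6 tested, and 0 had an unadjusted p under 0.05. Fabp1, the liver-type protein of enterocytes, had the highest log2 fold change (1.17, 95% interval -0.52 to 2.86), with 346 CPM in pMCAO 2 and 22.7 to 127 CPM in the other pMCAO libraries. Fabp2, the intestinal type and the highest per length, was at 177 ± 109 and 181 ± 183 CPM, and Fabp6, the ileal bile acid-binding protein, had the lowest log2 fold change (-0.72, 95% interval -2.61 to 1.16). Fabp1, Fabp2 and Rbp2 count among the epithelial markers above and were each highest in pMCAO 2, whereas Fabp6 was highest in sham 4 (101 CPM). Fabp5, the relative known from macrophages, was at 6.29 ± 2.83 and 7.30 ± 6.10 CPM (log2 fold change 0.22, 95% interval -0.99 to 1.43). The median log2 fold change of the 6 was 0.51, beside -0.01 for all genes, and it was 0.13 with the replicate block, 0.17 with sample quality weights and 0.03 without pMCAO 2.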

How the data were processed

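Libraries had been made from nanogram amounts of total RNA after removal of ribosomal RNA. Whole-number counts per gene in 10 libraries (5 sham, 5 pMCAO, grouped by sample title) were deposited by the authors without normalization. The CPM columns deposited by the authors equal those counts scaled to each library's total. The authors' comparison columns (log2 fold change, mean expression, p and FDR) were not used. STAR, featureCounts and limma with GRCm38/mm10 are named in the submitters' processing notes; strandedness is not given in the sources used here. Every gene in the table reaches 10 counts in 2 or more libraries.

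In R 4.3.3, edgeR 4.0.16 was used to filter the counts (filterByExpr), to scale them by the trimmed mean of M values (TMM) and to fit its quasi-likelihood model with the group as the only term; p-values were adjusted over 16949 genes by Benjamini-Hochberg. Printed CPM are TMM-scaled. Log2 CPM for correlations had a prior count of 2. Exon lengths were unions of GENCODE M21 exons. In simulated data with these libraries' means and dispersions, 114 of 188 changed genes were recovered (60.6%), with 3 false calls among 16421 genes. The planted log2 fold changes were 2 or 3 in either direction, so this share does not measure the recovery of smaller changes.

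The members and lists were chosen with earlier results of these data known. From the lists, genes were named that had the highest or lowest log2 fold change, an unadjusted p under 0.05 or the highest level per length. That level was the mean over the 10 libraries. Stra6l, Aldh1a3, Fabp5, the neighbours and the markers were singled out after their values were seen. The 5 tested genes with the highest r to Rbp7 were also named. Some genes that these rules give are not reported or drawn here. Relations across libraries used 100000 permutations, two-sided. Alternatives were DESeq2 1.42.0, limma-voom (limma 3.58.1) with and without sample quality weights, upper-quartile and total-count scaling, no filter, a minimum of 1 CPM exceeded in 5 or more libraries, replicate numbers as blocks, and leaving out both pools, both libraries with high Xist or each library in turn.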

Additional observations from a re-analysis of the deposited data

Results flagged for a closer look

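In 146 groups of 5 libraries (the named and wider retinoid genes, the marker sums and the total counts, each in either group), the gap between an extreme library and its nearest neighbour was divided by the range of the group on the log2 scale. By chance about 1 in 20 groups, or 7.3 of 146, pass the limit of 0.71 for 5 samples, and 4 did. Rbp2 was low in sham 2 (0.76 of the range; 0.873 CPM against 6.92 to 13.1 CPM in the other sham libraries). Rdh7 was low in sham 2 (0.854; 0 CPM against 1.41 to 2.41 CPM). Cyp26b1 was low in pMCAO 3 (0.813; 0 CPM against 0.687 to 1.23 CPM). Cox20-ps was high in sham 4 (0.774; 1.82 CPM against 0.733 to 0.905 CPM). None of these is a member gene, and the cause was not tested.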

How the results depend on the processing

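DESeq2 called 3 genes at an FDR of 0.05, against 0 in edgeR and in the other 19 alternatives; the cause was not tested. The count of wider retinoid genes with an unadjusted p under 0.05 was 0 in edgeR (4.71% of all genes). It was 2 in limma-voom (5.2% of all genes) and 5 with sample quality weights (11.1% of all genes). The count was 1 without both pooled libraries and 0 to 2 without each library in turn. For these fits and for the replicate block below, the share of all genes is not given, so nothing is read from their counts. Pairing by replicate number was not established: deviations from the group means of same-numbered libraries had correlations of -0.0055 to 0.372 (mean 0.197), with 3 of 5 over 0.1, and 2 of 5 sham libraries matched best with their own number; with the replicate block the count was 3, with 0 genes called at an FDR of 0.05. Over 35 named genes other than Rbp7, 648 of 695 log2 fold changes kept their sign and their side of the FDR limit, and 47 changed sign. With sample quality weights the sign changed for Aldh1a2 (0.11), Dhrs3 (0.0602), Dhrs4 (-0.12), Aldh1a7 (-0.33), Dgat1 (-0.17) and Fabp2 (-0.55), in limma-voom for Dhrs3 (0.11), Dgat1 (-0.11) and Fabp2 (-0.35), with the block for Dhrs3 (0.11) and Fabp2 (-0.44), and with total-count scaling for Dgat1 (-0.0074) and Fabp2 (-0.0197). It changed without both pools for Dhrs3 (0.0508) and Ncoa3 (-0.0247), and without both libraries with high Xist for Rxra (-0.0033), Ttr (0.65), Cyp26b1 (-0.55) and Ncoa3 (-0.10). Without single libraries, log2 fold changes ran from -0.42 to 0.37 for Dhrs3, -0.0696 to 1.21 for Rbp2, -0.81 to 0.33 for Ttr, -0.14 to 0.38 for Dhrs4, -0.17 to 0.19 for Dgat1, -0.28 to 0.82 for Cyp26b1, -0.0132 to 0.71 for Nr1h3, -0.079 to 0.17 for Ncoa3, -1.35 to 0.0049 for Fabp6 and -0.78 to 0.49 for Fabp2. Depth limited Rbp7 most in pMCAO 1, where it rests on 3 counts (0.0907 to 1.29 CPM).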
